A study of Drosophila melanogaster with 9 samples.

Results

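Midguts of Drosophila melanogaster larvae of the last instar that had been starved for 12 h were compared with midguts of larvae kept on normal food. The comparison uses 6 of the 9 arrays of the series: the 3 whose labels give starvation and the 3 whose labels give normal food, over all 13966 probe sets that are not array controls. All larvae were of strain W1118, a white-eyed laboratory stock that carries a mutation in the white gene, and the controls carry it too. The starved larvae were 108 h old when food was withdrawn for 12 h, and the control larvae were taken at 120 h. A further group, larvae moved at 108 h (108 to 110 h in replicate 1) to food that held 1% WGA for 12 h, has 3 arrays and is used here only where starvation is set against it; WGA, wheat germ agglutinin, is a plant lectin that binds N-acetylglucosamine, a building block of chitin. Each array measured RNA of 1 pool of 50 dissected midguts, and the labels call the 3 pools of a group biological replicates. In such bulk tissue, fewer cells of a type and less RNA per cell cannot be told apart, and the labels do not say whether starved larvae had water.

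The larval midgut secretes digestive enzymes, takes up sugars, amino acids and lipids, and exports lipid to the rest of the body. When food is lacking, insulin and TOR signalling fall, the transcription factors FOXO and REPTOR become active and raise genes such as Thor (4E-BP, a brake on translation), and cells turn to autophagy and stored lipid and glycogen. Sugar in the food acts through the transcription factor pair Mondo and Mlx, whose targets include sugarbabe (sug), cabut (cbt) and the enzymes of fatty acid synthesis. In Drosophila larvae, Lip3, sug and Thor are widely used as markers of feeding state.

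Levels are given as normalised log2 signal, and differences as starved minus control on the log2 scale with the standard error (SE) of the fit. A probe set counts as having risen or fallen when its p-value from limma, adjusted over all 9675 probe sets tested by Benjamini-Hochberg, was under 0.05. By that rule 786 probe sets rose (8.12%) and 686 fell (7.09%), and 506 (5.23%) and 449 (4.64%) of them did so by at least 2-fold. Taking the brightest tested probe set for each of 7905 genes, 661 genes rose (8.36%) and 585 fell (7.4%), and the median difference of all tested genes was 0.01. The arrays of the 2 groups did not overlap for 29.4% of probe sets and 29.7% of genes. The genes with the largest rises and falls, and most list members named below, were chosen to have no overlap. For them no overlap was fixed by the choice and describes the values only. Counts of 1 or 2 genes in a list often depended on a single array. The highest adjusted p given in parentheses for a gene is that over the fits that left out 1 array. Other alternatives gave higher values for some genes. Array pairs correlated at 0.919 to 0.930 within starvation, at 0.907 to 0.925 within control and at 0.853 to 0.885 between them. The 3'/5' signal ratio of control probe sets, a sign of RNA quality, differed by group: for eIF-4a it was 2.83 to 3.56 on the starved and 3.60 to 5.71 on the control arrays, and for GAPDH 2.92 to 3.35 on the starved and 1.97 to 2.92 on the control arrays. Their part in the results was not tested. No batch or scan date is given in the labels, so a batch that follows the groups cannot be told apart from starvation. The scaling of the arrays sets the balance of calls: 53.4% of calls were rises as analysed here, 41.5% with each array centred on its median, and 87.3% with arrays scaled on the array's spike-in control probe sets, which moves the median of all tested probe sets to 0.60.

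The genes with the largest rises included digestive, defence and stress genes. Lip3, which encodes a lipase, stood at 10.91, 10.78 and 10.59 on the starved arrays, against 2.81, 4.42 and 4.69 on the control arrays. This was the largest rise of all, 110-fold (6.78 ± 0.40, adjusted p = 2.52e-07). Cht4, a chitinase gene, measured 10.17, 10.23 and 10.05 in starved midguts and 3.99, 4.73 and 3.37 in control midguts, a difference of 6.12 ± 0.27. Both genes were far lower on every control array than on any starved array. Amyrel, an amylase-related gene, was at 11.09, 11.07 and 11.14 in starved midguts against 7.15, 7.65 and 6.99 in control midguts (3.84 ± 0.16, 14.3-fold). BomS6, one of the bomanins (short secreted immune peptides), was at 6.96, 7.22 and 6.84 in starved against 3.45, 3.06 and 2.77 in control midguts (3.91 ± 0.28). Sil1, which encodes a nucleotide exchange factor of the endoplasmic reticulum chaperone BiP, was at 7.19, 7.38 and 6.42 in starved against 4.16, 3.63 and 3.01 in control midguts (3.40 ± 0.30). In each of these every starved array lay above all control arrays. Hsp26, a small heat shock protein gene, differed from them in its spread, with 9.24, 6.55 and 4.26 on the starved arrays and 3.12, 3.90 and 3.44 on the control arrays. Its rise of 3.19 ± 0.84 (adjusted p = 0.0201) was largest in starvation replicate 1, and it lost its call without control replicate 1 (adjusted p = 0.0716) or starvation replicate 2. Drs (drosomycin, an antifungal peptide) and ced-6 (an adaptor for the engulfment of dying cells) rose by 3.39 and 3.30, and both had control means below the filter level of 2.79, so that the size of these differences is uncertain. Among the 15 largest were also fok and 6 genes known only by CG number: CG12951 (4.99), CG6271 (4.46), CG34166 (3.86), CG31089 (3.84), CG15695 (3.35) and CG11241 (3.12).

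**Figure D1:**
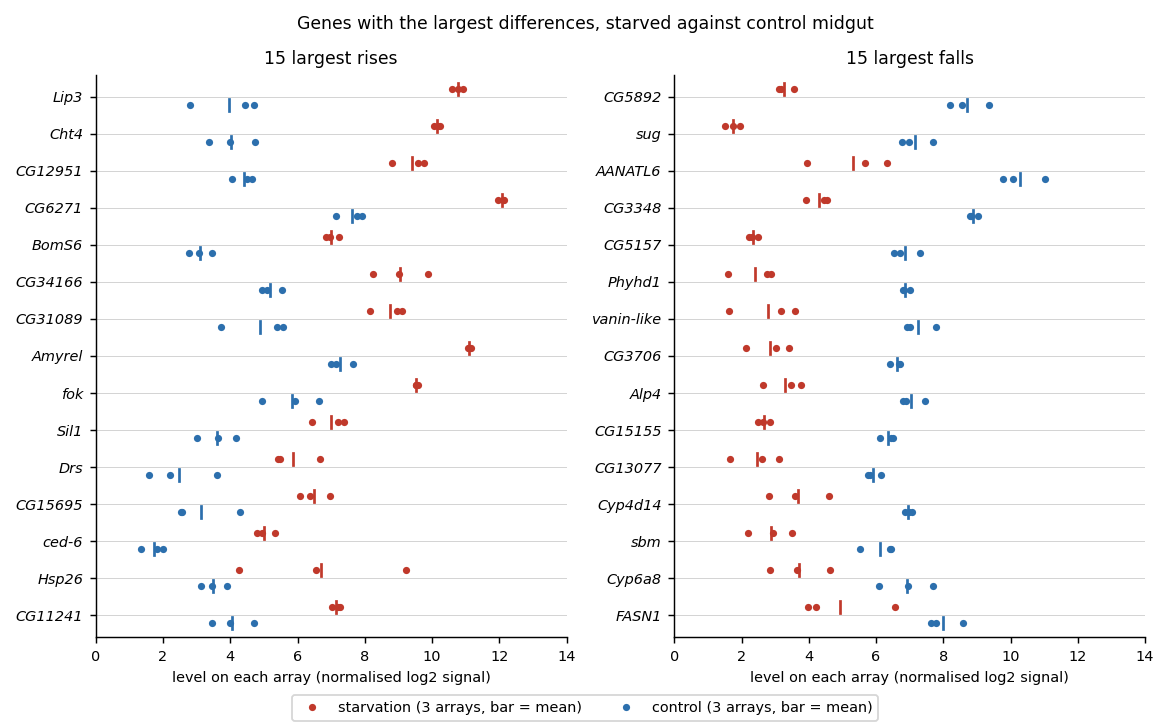
Level on each array (x axis, normalised log2 signal) of the 15 genes with the largest rises (left) and the 15 with the largest falls (right) in starved against control midguts; each point is 1 array of starvation (red, upper row of a gene) or control (blue, lower row), and bars are means of 3 arrays. The groups do not overlap in any of the 30 genes, as the choice of the genes required; Hsp26 has the widest spread, from 4.26 to 9.24 on the starved arrays.

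Among the largest falls was the sugar-responsive transcription factor gene sug (sugarbabe). It was at 1.49, 1.75 and 1.96 on the starved arrays and at 6.76, 6.99 and 7.70 on the control arrays, a fall of 5.42 on the log2 scale (SE 0.33, adjusted p = 3.32e-07). All 3 starved values were below the filter level, so the fold is uncertain, and the groups did not overlap. FASN1, the fatty acid synthase, was at 4.23, 3.98 and 6.58 in starved midguts, against 7.78, 7.62 and 8.58 in control midguts (−3.07 ± 0.51). Starvation replicate 3 stood well above the other 2 and still below every control array. AANATL6, of the arylalkylamine N-acetyltransferase-like family, was at 3.95, 5.67 and 6.32 in starved against 9.76, 10.08 and 11.02 in control midguts (−4.98 ± 0.61). Its other probe set fell too, by 3.88. Alp4, an alkaline phosphatase, fell by 3.75 (SE 0.38), the cytochrome P450 genes Cyp4d14 and Cyp6a8 by 3.29 and 3.20, vanin-like by 4.44, Phyhd1 by 4.46, and sbm (sobremesa), listed among nutrient transporters, by 3.26. CG5892, with a fall close in size to that of sug, measured 3.10, 3.56 and 3.16 in starved midguts and 8.20, 8.54 and 9.37 in control midguts (43.2 times lower). CG3348 (−4.59), CG5157 (−4.51), CG3706 (−3.76), CG15155 (−3.70) and CG13077 (−3.44) made up the rest, and CG5157, CG15155, CG13077 and Phyhd1 had starved means below the filter level.

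Genes of insulin, FOXO and TOR signalling rose in part and none fell. Of 22 list members with a probe set, 21 were tested; 7 rose and 0 fell, with a median of 0.61 against 0.01 over all tested genes. The count was 4 without control replicate 1 or starvation replicate 1, and 3 without starvation replicate 2. Among the rises were AMPKalpha (0.79), SNF4Agamma (0.77) and alc (0.75), genes for subunits of the kinase AMPK that the list also holds. Thor has a probe set only through a probe identifier kept among the synonyms of the reference gene table, a route that gave the same gene as the array annotation for 111 of 113 other probe sets; it was named after its values were seen and is in no list count. That probe set was at 9.74, 9.92 and 10.34 on the starved arrays and at 7.31, 8.44 and 9.57 on the control arrays. It rose by 1.56 (SE 0.39, adjusted p = 0.0155), the groups did not overlap, and the call was lost without starvation replicate 3 (adjusted p = 0.0621) or control replicate 2. REPTOR-BP, the partner of REPTOR in the TOR-dependent response, was at 7.45, 7.71 and 7.69 in starved midguts against 5.88, 5.94 and 6.23 in control midguts, a rise of 1.60 ± 0.16. chico, the insulin receptor substrate, rose by 1.12 (SE 0.24). REPTOR itself (1.07, adjusted p = 0.0724), foxo (1.06, adjusted p = 0.134) and the insulin receptor gene InR (0.56, adjusted p = 0.517) did not pass the test, and REPTOR did so only without control replicate 2. Sesn, a stress-induced inhibitor of TOR, differed by −0.98 and did not pass (adjusted p = 0.162). Iml1 (GATOR1 complex, 2.02) and rictor (TOR complex 2, 1.92) rose too, but from control means below the filter level, and each lost its call in 4 or more of the 6 fits that left out a starved or control array (highest adjusted p 0.0883, without control replicate 2, and 0.1, without starvation replicate 2). A list of amino acid sensors upstream of TOR, added after the values were seen, had 4 rises and 0 falls among 15 tested, and 1 rise without starvation replicate 1, with 2 without control replicate 1, control replicate 2 or starvation replicate 2. The list shares genes with the insulin, FOXO and TOR list, and the rise of Iml1 is counted in both. Of its members Wdr59, of the GATOR2 complex, rose by 1.10 (SE 0.21) and kept its call in every fit run.

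Among genes tied to dietary sugar more fell than rose. Of 15 tested members of the Mondo and Mlx list, which also holds Mondo itself (−0.38, not called) and bigmax, the fly Mlx gene (0.70, rose), 8 fell and 2 rose, with a median of −1.12, and the median stayed negative under each of the 4 other scalings (−0.55 to −1.17). The other gene that rose was the hexokinase gene Hex-A (1.82), listed as a target. Besides sug and FASN1, AcCoAS (acetyl-CoA synthase) fell to 6.04, 5.76 and 6.11 in starved midguts, against 7.82, 7.96 and 8.70 in control midguts (−2.19 ± 0.22). In AcCoAS every starved array lay below every control array. Gpdh1, glycerol-3-phosphate dehydrogenase, fell by 1.67 (SE 0.21), also with no overlap. The transcription factor gene cbt fell by 1.89 with an adjusted p of 0.0494, its first starved array alone at 1.62, and the call was lost in several fits (highest adjusted p 0.13, without control replicate 3). Tret1-1, a trehalose transporter gene, differed by 0.34 and did not pass.

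Sugar and glycogen enzymes did not move as a block. Hex-A, a hexokinase, was at 6.41, 6.63 and 6.57 in starved midguts and at 4.48, 5.10 and 4.56 in control midguts, a rise of 1.82 ± 0.22 (adjusted p = 7.94e-05). Further down glycolysis, Eno (enolase, −0.88), Ald1 (aldolase, −0.74) and Pgk (phosphoglycerate kinase, −0.56) fell, 3 falls and 1 rise among 9 tested, but 1 fall without control replicate 1 or starvation replicate 3, fits in which Ald1 and Pgk lost their calls (highest adjusted p 0.0566 for Ald1 and 0.106 for Pgk). Treh, the trehalase, rose by 1.26 (SE 0.26), and the phosphoglucomutases Pgm1 and Pgm2a by 1.19 and 0.78, Pgm2a not without starvation replicate 2 (adjusted p = 0.109) or control replicate 2. Glyp, glycogen phosphorylase, fell by 1.01 (SE 0.21), and Glys, glycogen synthase, differed by 0.05. Pepck1, the key enzyme of gluconeogenesis, was at 8.43, 8.41 and 8.09 on the starved arrays against 9.73, 9.73 and 10.04 on the control arrays, a fall of 1.52 (SE 0.18), and PCB, pyruvate carboxylase, fell by 1.61. Gluconeogenesis and glycerol phosphate together had 3 falls and 0 rises among 8 tested, with a median of −0.55 that became 0.02 under spike-in scaling, and 2 rises without starvation replicate 3. The 3 falls include Gpdh1, which is also counted in the Mondo and Mlx list.

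**Figure D2:**
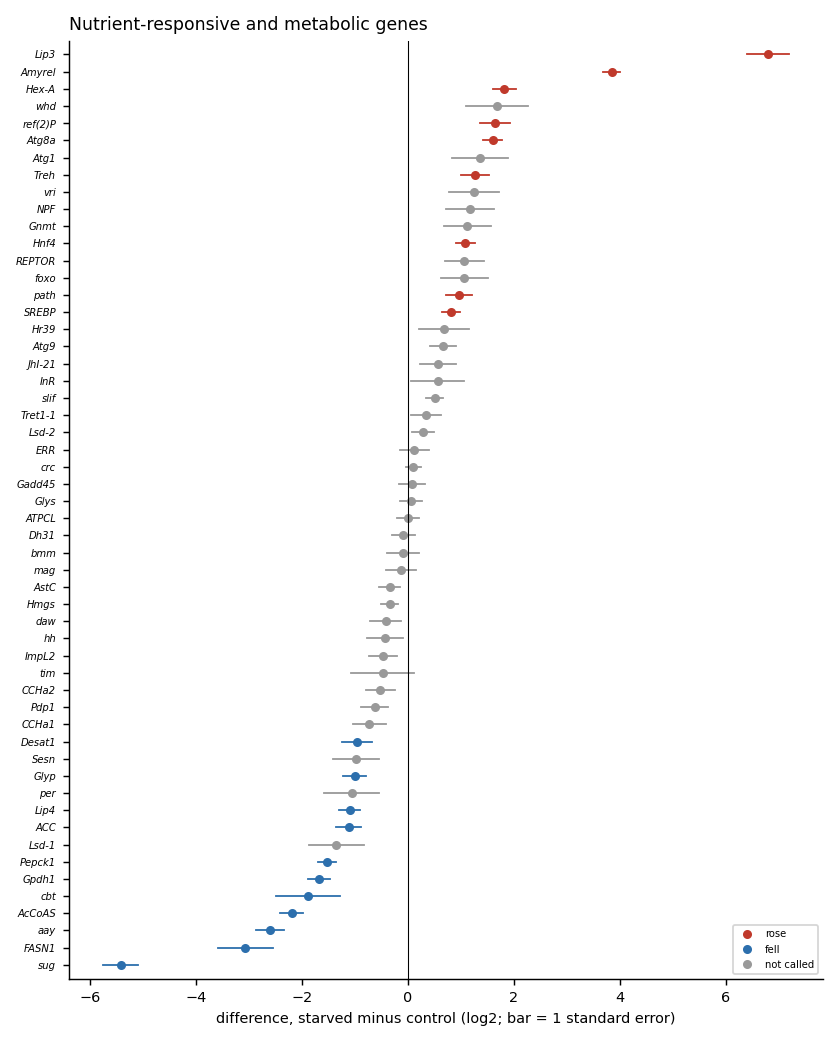
Difference between starved and control midguts (x axis, log2; bars are 1 standard error of the fit) for the 54 tested genes of a list of nutrient-responsive and metabolic genes, sorted by size, with rises in red, falls in blue and genes that did not pass the test in grey. Of these genes 9 rose, 11 fell and 34 did not pass; Lip3 (6.78) and Amyrel (3.84) are at the top, FASN1 (−3.07) and sug (−5.42) at the bottom.

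Lipid genes moved in both directions. Of 18 tested genes of lipid storage and mobilisation 4 rose and 5 fell. On the synthesis side, mino, the mitochondrial glycerol-3-phosphate acyltransferase, rose by 2.06 (SE 0.26), while Gpat4, also a glycerol-3-phosphate acyltransferase, fell by 1.26. Of the genes for the next acylation, Agpat3 and Agpat4 fell and Agpat2 differed by 1.24 and did not pass. Agpat3 was at 5.83, 5.73 and 5.51 in starved midguts against 8.58, 8.62 and 8.15 in control midguts (−2.76 ± 0.18), and Agpat4 fell by 1.94. The triglyceride lipase gene bmm (brummer, −0.09, adjusted p = 0.88) and the gut lipase gene mag (magro, −0.13, adjusted p = 0.821) did not pass, nor did the lipid droplet genes Lsd-1 (−1.35, adjusted p = 0.102) and Lsd-2 (0.29). Lip4 fell by 1.09. In fatty acid and sterol synthesis 5 of 13 tested genes fell and 1 rose (median −0.34, but 0.02 under spike-in scaling), and the falls numbered 3 without control replicate 2 or control replicate 3. Of these falls, FASN1, ACC and AcCoAS are also counted in the Mondo and Mlx list. ACC, acetyl-CoA carboxylase, fell by 1.12 (SE 0.24) and the desaturase Desat1 by 0.96 (highest adjusted p 0.13, without control replicate 3), while ATPCL, ATP citrate lyase, differed by 0.00. SREBP, the transcription factor of lipid synthesis, rose by 0.81 (SE 0.17, adjusted p = 0.0062). Among 23 lipoproteins and lipid carriers 4 fell and 2 rose, and carriers of fatty acids inside cells were among those that fell. Acbp5 (acyl-CoA binding) was at 10.63, 10.66 and 10.54 in starved midguts and at 12.46, 12.41 and 12.38 in control midguts, a fall of 1.81 (SE 0.12), Acbp1 fell by 1.63 and fabp (fatty acid binding) by 1.21. LpR2, a lipophorin receptor, rose by 1.44 (SE 0.23), and its second, dimmer probe set was not called.

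In amino acid metabolism, the genes of serine synthesis and one-carbon metabolism fell more often than they rose, 5 against 2 of 15 tested (3 falls without control replicate 1, control replicate 2 or starvation replicate 1), with a median of −0.33 that was 0.21 under spike-in scaling. The rises were those of pug (0.82) and Sam-S, S-adenosylmethionine synthetase, which was at 8.58, 8.17 and 7.63 on the starved and 6.15, 5.98 and 6.01 on the control arrays (2.08 ± 0.34). aay, the phosphoserine phosphatase, was at 5.32, 4.47 and 4.17 in starved against 7.06, 7.21 and 7.49 in control midguts (−2.60 ± 0.27). A list of the integrated stress response, which holds targets of the stress factor ATF4, its own gene and regulators of the response, gave 4 falls and 0 rises among 16 tested. These were aay, CG6287 (−2.62), CG11899 (−1.67) and Nmdmc (−1.89), which are also 4 of the 5 falls of the serine and one-carbon list. The median of the stress response list was −0.32, and 0.25 under spike-in scaling; Nmdmc had a starved mean below the filter level and lost its call in several fits (highest adjusted p 0.123, without starvation replicate 1). crc, which encodes ATF4, did not pass (0.10, adjusted p = 0.69), at 9.89, 10.22 and 9.88 in starved and 9.85, 9.98 and 9.85 in control midguts. Of 25 tested genes of amino acid catabolism 3 rose and 4 fell (2 fell without control replicate 1, control replicate 2 or starvation replicate 2). Oat, ornithine aminotransferase, rose by 1.84 (SE 0.35) and ry, xanthine dehydrogenase, by 2.58 from a control mean below the filter level (highest adjusted p 0.078, without control replicate 1), and Gabat, GABA transaminase, fell by 1.60 (SE 0.18). Of 14 purine and pyrimidine genes tested 0 rose and 0 fell, while leaving out starvation replicate 3 gave 2 rises.

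Genes for mitochondrial energy metabolism were lower in starved midguts. Of 56 tested subunits of the respiratory chain and ATP synthase 45 fell and 0 rose, 80.4% against 7.4% of all genes, with a median of −1.19 that stayed between −0.95 and −1.58 under the other scalings. By complex, 24 of 31 subunits of complex I, 5 of 6 of complex III, 6 of 6 of complex IV and 10 of 13 of ATP synthase fell, with medians of −1.06, −1.29, −1.38 and −1.19. COX5A, a complex IV subunit, was at 9.85, 9.64 and 9.65 in starved midguts, against 11.70, 11.56 and 11.23 in control midguts (−1.78 ± 0.14, adjusted p = 2.8e-06). ATPsynO was at 9.38, 9.10 and 9.01 in starved against 11.22, 11.00 and 10.63 in control midguts (−1.78 ± 0.17). ATPsyndelta was at 8.18, 7.68 and 7.37 in starved against 9.98, 9.80 and 9.11 in control midguts (−1.89 ± 0.24), and ND-B14.5B fell by 1.75. In COX5A, ATPsynO and ATPsyndelta every starved array lay below every control array. sun, which encodes the epsilon subunit of ATP synthase and in Drosophila is also known as a secreted signal for insulin release, was listed with body-wide signals and fell by 2.27 (SE 0.26). Of the 11 subunits that did not pass, 9 have symbols that end in L or in L and a digit, such as ND-20L and ND-51L1, as used for genes named as like a subunit, and their control means ran from 2.80 to 5.12, in the dim part of the array.

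Other mitochondrial lists went the same way. In the tricarboxylic acid cycle 11 of 14 tested genes fell and 0 rose (median −0.80; 6 fell without control replicate 2). SdhC, which belongs to this list and to complex II, was at 6.75, 6.67 and 6.16 on the starved arrays and at 8.56, 8.31 and 8.10 on the control arrays (−1.79 ± 0.19); SdhD fell by 1.10, ScsbetaG by 1.17 and muc, a subunit of pyruvate dehydrogenase, by 1.13. Of 64 mitochondrial ribosomal protein genes tested, 20 fell and 0 rose (median −0.76), with 10 falls without control replicate 1, 13 without starvation replicate 3 and 34 without control replicate 3. mRpS33 fell by 2.33 (SE 0.43) and mRpL23 by 1.91 (SE 0.42). A list of mitochondrial protein import genes, added after the values were seen, had 5 falls and 0 rises among 11 (median −1.05). Its member porin, the channel of the outer membrane, was at 8.76, 8.63 and 7.78 in starved against 10.47, 10.32 and 9.87 in control midguts (−1.83 ± 0.24). Fatty acid oxidation, the use of stored fat, had 6 falls and 0 rises among 13 (median −0.60): Acox3, a peroxisomal oxidase, fell by 1.15 (SE 0.15) and yip2, a thiolase, by 1.01. whd, the carnitine palmitoyltransferase that brings fatty acids into mitochondria, differed by 1.68 upwards, with 4.79, 4.81 and 5.24 in starved and 1.59, 3.39 and 4.81 in control midguts; the groups overlapped and it did not pass (adjusted p = 0.0701), except without control replicate 3 (adjusted p = 0.00305). The medians of these 4 lists were negative under every scaling run.

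Some genes for mitochondrial quality control rose. In a list of mitophagy and mitochondrial dynamics, written after the values were seen, 4 of 10 rose and 0 fell (median 0.18), 2 without control replicate 1 or starvation replicate 3. Marf, the mitofusin of the outer membrane, was at 7.37, 7.29 and 7.09 in starved midguts and at 5.02, 5.59 and 5.66 in control midguts, a rise of 1.83 ± 0.20. BNIP3, a mitophagy receptor, was at 7.44, 7.85 and 8.40 in starved against 5.47, 5.63 and 7.10 in control midguts (1.83 ± 0.37). Both genes had all starved arrays above all control arrays.

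**Figure D3:**
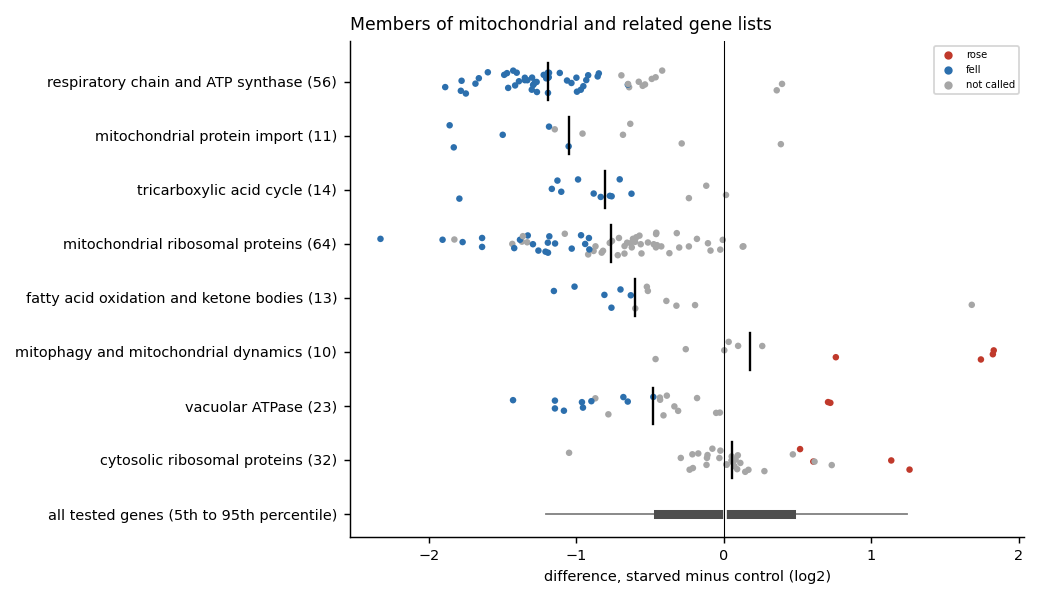
Difference between starved and control midguts (x axis, log2) for the members of 6 mitochondrial lists, the vacuolar ATPase and the cytosolic ribosomal proteins; each point is 1 gene (red rose, blue fell, grey did not pass; vertical scatter has no meaning), black lines are list medians, and the bottom row shows the 5th to 95th percentile of all tested genes with the middle 50% as a thick bar. The respiratory chain lies almost wholly below 0 (median −1.19), while the cytosolic ribosomal proteins lie around 0.

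Digestive enzyme genes included rises and falls. Of 28 trypsin-family protease genes tested 4 rose and 5 fell, among them alphaTry, at 9.25, 9.43 and 9.67 in starved against 7.19, 7.04 and 7.64 in control midguts (2.16 ± 0.20), and Jon99Ci, at 9.39, 9.73 and 10.02 in starved against 11.31, 11.02 and 10.46 in control midguts (−1.21 ± 0.21). Phae2 rose by 1.41 and Jon44E fell by 1.07. In alphaTry and Jon99Ci the groups did not overlap. Among 19 amylases, maltases and glycosidases 6 rose and 2 fell (median 0.55). The maltase Mal-A4 was at 11.74, 11.79 and 12.27 on the starved and 10.29, 9.93 and 9.76 on the control arrays (1.94 ± 0.18), Mal-A3 rose by 1.56, and LManV, an alpha-mannosidase, fell by 1.40 (SE 0.21). Of 17 lipase-family genes 6 rose and 2 fell; next to Lip3 these included CG8093, which rose by 2.51. Of 19 other peptidases 3 rose and 0 fell (6 rose without control replicate 3 or starvation replicate 1), among them cysteine proteases of the lysosome. CtsF was at 9.07, 9.81 and 10.40 in starved against 7.07, 7.53 and 8.35 in control midguts (2.11 ± 0.33), and CtsL1 rose by 1.38 (SE 0.21). Digestive lysozymes, among the brightest genes of the tissue, gave 0 calls among 6 tested, with LysS at 12.04, 12.14 and 12.08 in starved and 12.17, 12.27 and 12.24 in control midguts; near-identical copies of these genes may share probes, so values for single lysozymes are uncertain.

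Genes of the gut lining rose in part, while proton pump and transporter genes fell in part. The peritrophic matrix, a chitin and mucin sheet around the food, is built from peritrophins and mucins, of which 7 of 18 tested rose and 0 fell (median 0.70; 4 rose without control replicate 2, control replicate 3, starvation replicate 1 or starvation replicate 2). Muc26B rose by 2.64 (SE 0.38) and Muc11A by 2.40 (SE 0.37), and Muc18B, at 10.80, 10.79 and 10.64 in starved against 9.34, 9.77 and 9.77 in control midguts, by 1.12. Of 14 chitin enzyme genes 3 rose and 0 fell, with the chitinase Cht9 at 11.22, 11.06 and 10.97 in starved against 8.45, 8.32 and 7.90 in control midguts (2.86 ± 0.17). Of 23 subunits of the vacuolar ATPase, the proton pump of acid compartments and of copper cells, 10 fell and 2 rose (median −0.48, negative under every scaling run; 0 rose without control replicate 1, starvation replicate 1 or starvation replicate 2). Vha14-1 was at 9.18, 9.17 and 9.21 on the starved arrays and at 10.83, 10.61 and 10.41 on the control arrays (−1.43 ± 0.13), and Vha16-1 fell by 1.14 (its dimmer probe set was not called). Of 34 nutrient transporters 8 fell and 3 rose (median −0.21, but 0.36 under spike-in scaling): MFS14 fell by 2.39 and MFS3 by 1.55, both of the major facilitator family, while the amino acid transporter gene path rose by 0.96 (highest adjusted p 0.0948, without starvation replicate 2) and slif, another, differed by 0.50 and did not pass (adjusted p = 0.0553). Among 12 alkaline phosphatases 3 fell and 0 rose, Alp4 as above with Alp8 (−1.42) and Alp12 (−1.19); their median was −0.28, and 0.07 under spike-in scaling.

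Detoxification families held both strong rises and strong falls. Of 63 cytochrome P450 genes 11 rose and 11 fell (6 fell without control replicate 2, and 7 without control replicate 3, starvation replicate 1 or starvation replicate 2). Cyp6g1, known for insecticide resistance, was at 9.22, 9.27 and 9.40 in starved midguts and at 6.51, 6.91 and 7.01 in control midguts (2.48 ± 0.20), whereas Cyp6a2 was at 5.33, 5.45 and 5.63 in starved against 7.69, 8.31 and 8.08 in control midguts (−2.56 ± 0.23). Glutathione S-transferases likewise had 7 rises and 10 falls among 31 tested (median −0.35, but 0.17 under spike-in scaling). GstT4 was at 9.42, 9.49 and 9.70 in starved against 6.31, 6.80 and 7.31 in control midguts (2.73 ± 0.21), and GstE8 at 4.18, 3.59 and 3.38 in starved against 6.44, 6.63 and 6.60 in control midguts (−2.84 ± 0.24). In all 4 genes the groups were at least 1 log2 unit apart. Of 26 UDP-glycosyltransferases 3 rose (1 without control replicate 1) and 5 fell. Nrf2 targets and antioxidant genes gave 6 falls and 2 rises among 16 (median −0.23, but 0.32 under spike-in scaling): Trx2 (thioredoxin) fell by 2.38 (SE 0.22), Men (malic enzyme, which makes NADPH) by 1.86 and Prx3, a mitochondrial peroxiredoxin, by 1.76. Jheh2, a juvenile hormone epoxide hydrolase, fell by 1.86 (SE 0.17), while Jhbp6, of the takeout family, rose by 1.65 (SE 0.30).

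Translation factors and proteasome subunits rose more often than they fell. Of 36 translation factors 12 rose and 1 fell (median 0.42), but 2 rose on the deposited scale and 5 with median centring. The initiation factor subunit eIF3d1 was at 8.90, 8.47 and 8.11 in starved and 7.56, 7.41 and 7.41 in control midguts (1.03 ± 0.19), eIF3c rose by 1.21 and eIF3l by 1.07, and eEF1delta fell by 1.38 (adjusted p = 0.0555 without control replicate 1). Of 32 cytosolic ribosomal proteins 4 rose and 0 fell, and of 30 ribosome biogenesis genes 4 rose and 0 fell (2 rose without control replicate 3, starvation replicate 1 or starvation replicate 2); these shares, 12.5% and 13.3%, stand beside 8.36% of all genes. RpL28 was at 10.59, 10.36 and 10.72 in starved midguts, against 9.19, 9.28 and 9.79 in control midguts. Of 28 aminoacyl-tRNA synthetases 1 fell, and of 23 DNA replication and cell cycle genes 0 passed. Of 26 proteasome subunits 7 rose and 0 fell, yet this count was 1 without control replicate 1, starvation replicate 2 or starvation replicate 3, 2 without control replicate 2, 12 without starvation replicate 1, and 1 on the deposited scale or with median centring. Rpn13, a ubiquitin receptor of the proteasome, rose by 1.02 (SE 0.21) and kept its call in every fit run.

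Autophagy genes rose in part. Atg8a, the protein that coats autophagosomes, was at 10.04, 10.23 and 10.57 on the starved arrays and at 8.37, 8.65 and 9.03 on the control arrays, a rise of 1.60 ± 0.18 (3.03-fold, adjusted p = 4.92e-05). ref(2)P, the p62 receptor that brings ubiquitinated cargo to Atg8a, was at 8.28, 8.45 and 8.76 in starved against 6.02, 7.04 and 7.52 in control midguts (1.64 ± 0.29). In both the groups did not overlap, and both kept their call in every fit run. In all, 4 of 22 tested autophagy genes rose and 0 fell (median 0.53), a share of 18.2% beside 8.36% of all genes. Only 2 rose without starvation replicate 2 or starvation replicate 3. The rises of Atg13 and Atg18a were lost in 10 and 8 of the 18 alternatives run. Atg1, the starting kinase, differed by 1.36 and did not pass (adjusted p = 0.108), nor did Atg9 (0.66), except without 1 array each (control replicate 3 for Atg1, starvation replicate 1 for Atg9). Of 20 lysosomal hydrolase and sorting genes 6 rose and 1 fell, with Sap-r (prosaposin) at 10.65, 11.23 and 11.54 in starved against 8.47, 9.43 and 10.18 in control midguts (1.78 ± 0.33), and Lerp, the sorting receptor of lysosomal enzymes, higher by 1.66, with all 4 of its probe sets called. The rise of CtsF and the fall of LManV in this list are also counted with the peptidases and the glycosidases.

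Endoplasmic reticulum chaperones and secretion genes gave 8 rises and 4 falls among 35 tested. CaBP1, a disulfide isomerase, was at 9.26, 9.16 and 8.86 in starved and 7.52, 7.22 and 6.86 in control midguts (1.89 ± 0.18), Ero1L, its oxidase partner, rose by 1.42 (SE 0.20), and Hsc70-3 (BiP) by 1.24 (SE 0.19). The rises numbered 5 without control replicate 2, control replicate 3 or starvation replicate 2; the falls numbered 0 without control replicate 1, 1 without starvation replicate 2, and 2 without control replicate 2 or starvation replicate 3. Of 23 heat shock proteins and cochaperones 5 rose and 0 fell; 3 rose without control replicate 1 or control replicate 2, and 3 fell without control replicate 3 or starvation replicate 1. DnaJ-1 was at 8.03, 7.52 and 6.74 in starved against 5.52, 4.76 and 5.65 in control midguts (2.12 ± 0.31). Hsp27, like Hsp26, was uneven, at 7.36, 4.92 and 3.89 on the starved and 1.51, 2.24 and 3.77 on the control arrays (highest adjusted p 0.0747, without control replicate 1).

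Immune and tissue renewal genes rose in small numbers. Among 16 tested genes of antimicrobial peptides and the IMD pathway 6 rose and 0 fell (median 0.36). Rel, the NF-kB factor of the IMD pathway, was at 6.73, 6.42 and 6.47 in starved midguts and at 4.63, 4.78 and 5.56 in control midguts (1.55 ± 0.23), and the peptidoglycan receptor PGRP-LE rose by 1.12 (SE 0.19). Of 11 genes of JAK-STAT, EGFR and JNK signalling 3 rose (5 without control replicate 3) and 0 fell. dome, the JAK-STAT receptor, rose by 2.76 from a control mean below the filter level, while its other tested probe set differed by −0.40 and did not pass; kay (Fos) rose by 1.39 (SE 0.32). A list of genes for the engulfment of dying cells, added after the values were seen, had 5 rises and 0 falls among 6. Its receptor gene drpr (Draper) was at 7.58, 7.82 and 8.13 in starved against 5.52, 6.20 and 6.59 in control midguts (1.74 ± 0.25), and Shark, the kinase downstream, rose by 1.22 (SE 0.27). Of 8 caspases and death regulators 0 passed the test, with differences from −0.72 to 0.86.

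Other lists written after the values were seen concerned RNA and chromatin. Among 14 genes of mRNA deadenylation and translational repression 6 rose and 0 fell: Paip2, which holds poly(A)-binding protein in check, was at 7.14, 6.75 and 7.27 in starved midguts and at 4.12, 4.53 and 5.97 in control midguts (2.18 ± 0.36), and the deadenylase genes PAN2 and angel rose by 1.84 and 1.86. Among 17 Trithorax-group regulators 6 rose and 1 fell (2 rose without starvation replicate 2). trx itself was at 5.95, 5.62 and 5.85 in starved against 3.33, 3.71 and 3.77 in control midguts (2.20 ± 0.24).

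Gut hormones and clock genes gave few calls. Of 13 enteroendocrine markers tested 0 passed: NPF differed by 1.16 (adjusted p = 0.111), CCHa1 by −0.73, CCHa2, a nutrient-dependent gut peptide, by −0.52, AstC by −0.34 and Dh31 by −0.09. The body-wide signals daw (−0.42), hh (−0.43) and ImpL2, an insulin-binding protein (−0.48), did not pass either. In the clock list 1 of 10 rose, while vri (1.25), Pdp1 (−0.62), per (−1.06) and tim (−0.48) did not pass, and tim was below the filter level in both groups. Hnf4, a nuclear receptor that answers to fatty acids, was at 6.70, 6.93 and 6.68 in starved midguts and 5.44, 5.72 and 5.90 in control midguts, and rose by 1.08 (SE 0.18, adjusted p = 0.00108). GATAe, a factor that keeps midgut identity, rose by 0.90 (SE 0.21).

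**Figure D4:**
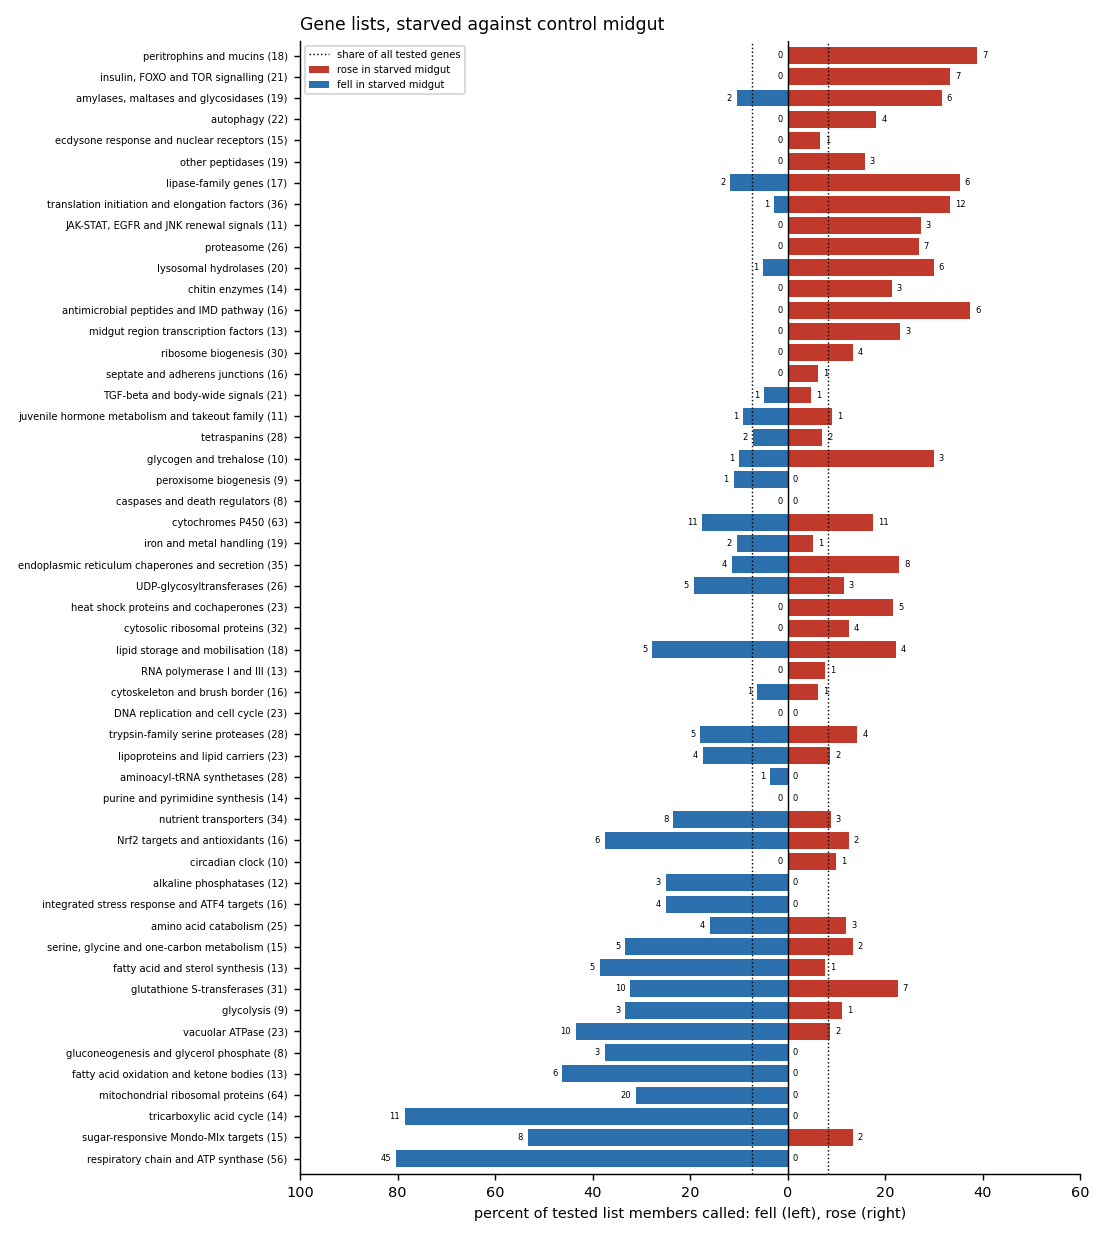
Share of tested members that rose (red, right) or fell (blue, left) in starved against control midguts for each functional list with 8 or more tested genes, sorted by list median; the number tested is in parentheses, the numbers at the bars count genes, and dotted lines mark the shares of all tested genes (8.36% rose, 7.4% fell). The respiratory chain has the highest share of falls (45 of 56), and 7 of 18 peritrophins and mucins rose; the lists added after values were seen are not drawn.

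Markers of the cell types that a dissected midgut can hold were set beside these results. Of 11 enterocyte markers tested 4 rose and 2 fell, and their summed signal was 4036 to 4570 on the starved and 3888 to 5007 on the control arrays, so that midgut markers were bright in both groups. The 12 visceral muscle markers summed to 2287 to 3037 on the starved and 4875 to 5564 on the control arrays. These sums are of linear signal, so the brightest markers weigh most, and Argk1 alone makes up much of this difference. Argk1 (arginine kinase) was at 9.29, 8.92 and 8.94 in starved against 11.27, 11.30 and 10.93 in control midguts (−2.12 ± 0.15), while its dimmer probe set differed by −0.50 and did not pass. Act87E fell by 0.52 (highest adjusted p 0.0785, without starvation replicate 2), and the other 8 of 10 tested did not pass. The list's median was −0.47, negative under every scaling run, and 6 of the 10 were lower on all starved arrays. Malpighian tubule markers, from the organ joined to the hind end of the midgut, summed to 245 to 322 on the starved and 493 to 537 on the control arrays. Of 8 tested, 4 fell and 0 rose: Smvt (−2.78), Oatp58Dc (−2.08), Drip (−1.12) and Prip (−0.60, highest adjusted p 0.105, without starvation replicate 3). The falls numbered 3 when any 1 starved or control array was left out, as Prip lost its call in each of these fits. Fat body markers summed to 368 to 1141 on the starved and 403 to 496 on the control arrays, with Lsp2, a storage protein of the haemolymph, at 7.04, 9.62 and 9.26 in starved against 6.61, 6.44 and 7.24 in control midguts. Lsp2 was called (1.88) although its groups overlapped, and not without control replicate 1, control replicate 2, starvation replicate 2 or starvation replicate 3; it too was named after its values were seen. Of 8 haemocyte markers 1 rose (crq, 0.98), and NimC1, eater, lz and srp were below the filter level on all 6 arrays, as were the salivary genes Sgs1, Sgs4, Sgs5 and Sgs7. The part of muscle, tubule or fat body in the results above, the mitochondrial falls included, was not tested.

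Set against the lectin diet, which was given for the same 12 h, digestive genes were higher in starved midguts. By the same rule 539 probe sets were higher in starved than in WGA-fed midguts (5.57%) and 575 lower (5.94%), or 468 and 492 of the genes (5.92% and 6.22%). LysS was at 12.04, 12.14 and 12.08 in starved midguts, against 6.25, 6.56 and 6.50 in WGA-fed midguts, a difference of 5.65. thetaTry, a trypsin, was at 7.69, 8.04 and 8.60 in starved midguts, against 3.47, 2.61 and 3.32 in WGA-fed midguts (4.98). Neither gene passed the test of starved against control midguts, with differences of −0.14 for LysS and −0.31 for thetaTry. Of 6 lysozymes 5 were higher in starved than in WGA-fed midguts and 0 lower, of 28 trypsin-family serine proteases 16 and 0, of 19 amylases, maltases and glycosidases 13 and 0, and of 17 lipase-family genes 8 and 0. CG12115 (6.23), CG6283 (5.73), CG17191 (5.68), CG6277 (5.55), CG6295 (5.51) and CG3819 (5.14) were also among the 10 largest. These are not all separate from the counts above: CG6277 and CG6295, for example, belong to the lipase-family list. Fatty acid oxidation was higher too, with 9 of 13 genes and 0 lower.

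Other groups were lower under starvation than under the lectin. Of 31 glutathione S-transferases 16 were lower and 3 higher, with GstD2 at 7.88, 8.07 and 8.37 in starved midguts against 12.46, 12.38 and 12.04 in WGA-fed midguts (−4.19), and GstD3 lower by 3.36. ImpL2 was lower by 3.31, and CG9743 by 4.32, CG8834 by 4.11 and CG10182 by 3.89. Proteasome subunits were lower in 12 of 26 and higher in 0, cytoskeletal and brush border genes in 10 of 16 and 0, heat shock genes in 9 of 23 and 3, and aminoacyl-tRNA synthetases in 6 of 28 and 0. For the respiratory chain 1 of 56 subunits was higher in starved than in WGA-fed midguts and 0 were lower, with a median difference of 0.03. sug was lower in starved than in WGA-fed midguts, by 2.42, and Hex-A was higher by 1.20. The probe set paired with Thor was at 10.69, 10.71 and 10.78 in WGA-fed midguts, above every starved array. Its difference of −0.73 did not pass (adjusted p = 0.309). The share of calls that were higher in starvation was 48.4% here, 37.4% with median centring and 15.1% on the deposited scale, on which the median of all tested probe sets was −0.35.

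**Figure D5:**
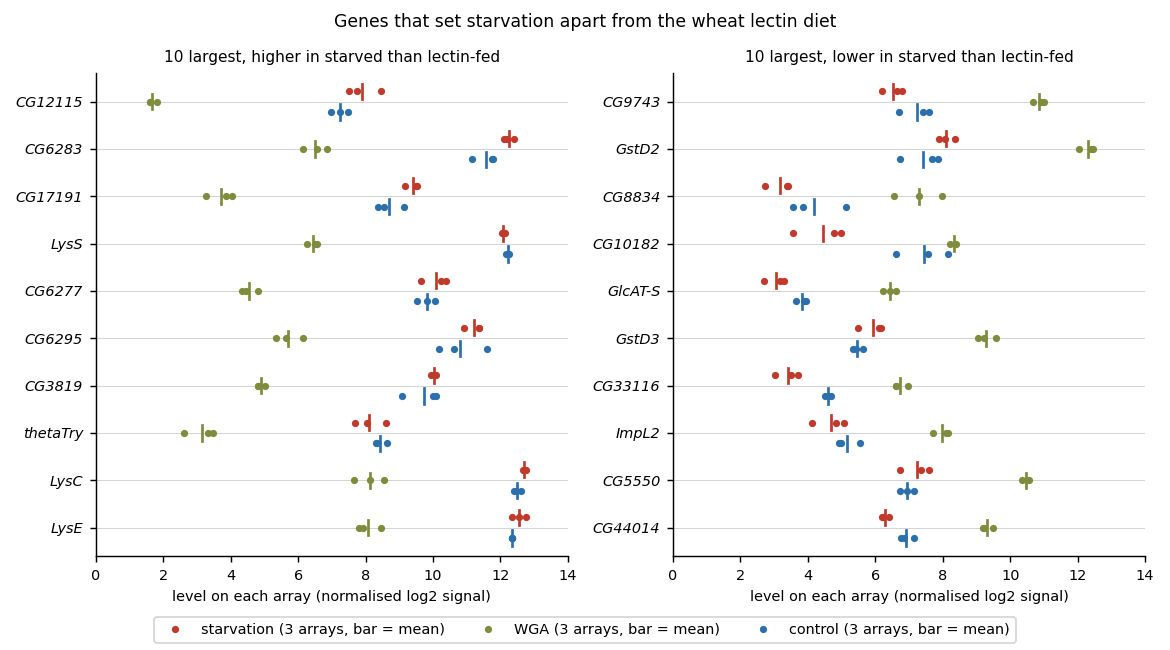
Level on each array (x axis, normalised log2 signal) of the 10 genes with the largest differences in each direction between starved and WGA-fed midguts; red points are starvation, olive points the lectin diet and blue points control, with 3 arrays each and bars at the means. In the left panel the starved arrays lie beside the control arrays and the lectin arrays far lower, as for LysS (12.04 to 12.14 in starvation, 6.25 to 6.56 under the lectin).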

How the data were processed

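RNA of larval midguts was hybridised to Affymetrix Drosophila arrays, 1 pool per array and 3 arrays in each of 3 groups. The values are linear signal intensities as deposited by the authors, 1 for each probe set on each array; the submitters' processing notes name the GCOS software, and which version and target intensity were used is not given in the sources. Array sums ran from 909028 to 1457246, and no counts lie behind them, so the number of arrays limits the precision.

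From these intensities an offset of 1.72 (their 20th percentile) was added, log2 taken and the 9 arrays quantile normalised. Control probe sets (44 of 14010) were left out, and a probe set was tested if at least 3 of 9 arrays lay above the 40th percentile (log2 2.79), which left 9675. All 9 arrays entered 1 limma fit (limma 3.58.1 in R 4.3.3) of group means with a trended variance prior and two-sided p-values adjusted by Benjamini-Hochberg over all tested probe sets; every adjusted p is from limma. The code was tested on simulated data. Probe sets were named from the array annotation, with symbols updated through a reference gene table (Release 6 plus ISO1 MT): 12443 have 1 gene, 327 several and 1196 none. The brightest of several tested probe sets stood for a gene (627 genes). Of 22 named genes with several tested probe sets, 15 had 1 called and another not, and 0 had opposite calls. The 15 are Argk1, Atg13, E(bx), EMC1, Jhbp6, LManV, LpR2, MFS14, Men, Non1, ScsbetaG, Vha16-1, dome, drpr and nub.

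Genes were named by these rules: the 15 largest rises and 15 largest falls without overlap between the groups, up to 4 called members of each list without overlap, a list of 77 nutrient-responsive genes whether called or not, and the 10 largest differences each way from the lectin diet. The members and lists were chosen with earlier results of these data known; lists come from general knowledge, and 8 were added after values were seen. Replicates were checked for pairing by number. Deviations of same-numbered starved and control arrays correlated at 0.0955, −0.00402 and 0.0962, and those of differently numbered arrays at −0.112 to 0.0203. These values do not settle whether the numbers pair samples. The labels do not say that they do, so the fit used no pairs. A fit with the replicate number as a block gave 1705 calls against control, beside 1472 as reported. Alternatives changed the scaling, offset, filter, variance prior, array weights, arrays in the fit and the arrays left out. A planned description of promoter motifs was not run.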

Additional observations from a re-analysis of the deposited data

How the results depend on the processing

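The number of probe sets that rose in starved against control midguts was 786 as reported, 1758 with spike-in scaling, 515 without a variance trend and between 510 (without starvation replicate 2) and 807 with 1 array left out; falls were 686, 255 with spike-in scaling and 504 to 697 with 1 array left out. For changes of at least 2-fold, spike-in scaling gave 1546 rises and 192 falls, and leaving out 1 array gave 397 to 549 rises and 370 to 496 falls. Against the lectin diet, starved midguts had 539 higher and 575 lower probe sets as reported, 180 and 1009 on the deposited scale, 274 and 350 with spike-in scaling, 345 higher without a trend, and 360 to 476 higher and 366 (without WGA replicate 2) to 543 lower with 1 array left out. The cause of these shifts was not tested. With the replicate block 916 rose and 789 fell against control. Of 220 named genes called, 134 kept their call under every alternative and 86 lost it in at least 1: 55 with an array left out, 51 without a trend, 39 with spike-in scaling and 38 on the deposited scale. Dim probe sets limit folds, 3 arrays a group limit calls, and the choice of scaling limits statements on how many genes rose or fell.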

Other observations

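In a list of the ER membrane complex, which inserts membrane proteins into the endoplasmic reticulum, 5 of 8 tested genes were lower in starved than in control midguts and 0 higher (median −0.72, negative under every scaling run); this list was added after values were seen, and 1 to 3 fell when any 1 starved or control array was left out. A list of prefoldin, which hands unfolded actin and tubulin to a chaperonin, was also added after values were seen. It had 3 falls and 0 rises among 6 genes against control, and 1 fall without control replicate 1, control replicate 2, starvation replicate 2 or starvation replicate 3. Against the lectin diet all 6 genes were lower in starved midguts.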
